A study of Mus musculus with 2 samples.

Results

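The 9 genes Nfkbia, Nfkbiz, Nfkbid, Tnfaip3, Tnip3, Zfp36, Dusp1, Dusp2 and Ier3 encode inducible regulators of NF-κB and MAP kinase signaling, most of them inhibitors. They were taken by gene symbol and make up 9 of the 27031 genes in the table of molecule counts. Each had UMIs (unique molecular identifiers, 1 per captured mRNA molecule) in both groups of mice.

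The study measured single-cell RNA in CD45+ immune cells sorted from subcutaneous MC38 tumors, a transplanted mouse colon carcinoma line, on the BD Rhapsody microwell system. All mice were female C57BL/6 animals of 6 to 8 weeks. The control pool came from 5 mice given vehicle, and the telmisartan pool from 5 mice given 5 mg/kg of telmisartan, a blocker of the angiotensin II type 1 receptor, by gavage each day. Tumors were taken on day 13, digested at 37 °C and sorted for live CD45+ cells, and both pools carried sample tags through 1 capture. The methods of the study start dosing at implantation, whereas the series description places it after tumors had formed.

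The control pool gave 4548 cells with 41852621 UMIs (median 8729.5 per cell), and the telmisartan pool gave 4432 cells with 30955375 UMIs (median 6359). There was 1 pool per group and no replicate, so no difference was tested and each comparison describes these pools. Levels are in CPM, where the UMIs of a gene in a population and group are scaled to all UMIs of that population and group. Ratios are log2 of telmisartan CPM over control CPM. Brackets hold 95% intervals, exact Poisson for levels, conditional binomial for ratios and Clopper-Pearson for shares, and they cover counting error only.

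NF-κB dimers are held inactive by IκB proteins, and inflammatory receptors such as Toll-like and TNF receptors release them through ubiquitin chains and the IKK complex. The same receptors activate MAP kinases, and both pathways induce their own inhibitors: IκB proteins, ubiquitin-editing enzymes, dual-specificity phosphatases and mRNA decay factors. In macrophages these immediate early genes limit the size and duration of cytokine output.

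Clusters were named by markers. Macrophage-like cells (4053 control, 3995 telmisartan) had UMIs of 11 of 11 macrophage markers, summing to 18543 and 18824 CPM, led by Lyz2. Dendritic-like cells (375 and 304) carried 1740.4 and 1717 CPM of 10 dendritic cell markers, led by Ccr7. Split further, they held a group of 148 cells (86 and 62) led by Ccl24, Lpl and the macrophage marker C1qa. T-like cells (69 and 109) carried 4398 and 5700.0 CPM of 11 T cell markers, led by Trac. Neutrophil-like cells (51 and 24) carried 16031 and 9224 CPM of 7 neutrophil markers, with Ly6g at 0 in both pools. Cell numbers are given as n alone.

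The first comparison asks how the 9 genes differ between macrophage-like cells of telmisartan-treated and control mice. By CPM, 4 of the 9 genes were higher with telmisartan past 1.5-fold (Nfkbia, Nfkbid, Tnfaip3 and Dusp2), and 4.65% of 11071 genes with at least 100 UMIs were past that fold in this direction. None of the 9 was lower past 1.5-fold, and 2.14% of the genes were. The 9 genes were chosen with earlier results of these data known, so these counts are a description and no measure of enrichment. With macrophage subclusters at the shares of both groups together, Nfkbia (0.54) and Tnfaip3 (0.57) were not past 1.5-fold. By the mean over cells of ln(1 + UMIs per 10000), Nfkbid (0.40) and Dusp2 (0.34) were not. When UMIs per cell were compared without scaling to total UMIs, 1 of the 9 was higher past 1.5-fold (Dusp2, 1.36; Nfkbia 0.39, Nfkbid 0.32, Tnfaip3 0.30) and 2 were lower past it (Zfp36, −0.68, and Dusp1, −0.60), beside 1.25% of the genes higher and 29.4% lower. Nfkbiz, Tnip3 and Ier3 were higher by less, but lower (−0.10, −0.16 and −0.07) without scaling, whereas Zfp36 and Dusp1 were lower both ways. That change of scale moved each ratio by −0.41, and so the median of all genes from −0.05 to −0.46. A gene lower by CPM in macrophage-like cells is therefore lower without scaling by construction, as for Zfp36 and Dusp1. The median of the 9 genes was 0.34 by CPM and −0.07 without scaling. Its distance above the median of all genes, 0.39, is the same in both by construction. The groups also differed in depth and RNA quality: macrophage-like cells had a median of 9019 UMIs and 7.20% mitochondrial UMIs in control and 6463 UMIs and 8.15% in telmisartan, and the part of these differences in the ratios was not tested beyond the matched values given further on. The 6 monocyte markers (6 of 6 detected in each pool) summed to 1363 CPM in control and 1538 CPM in telmisartan macrophage-like cells, with Ly6c2 (75.2 and 195.4 CPM, 1.38), Plac8 (65.7 and 159.7 CPM, 1.28) and F13a1 (0.52) higher and Ccr2 (−0.34), Vcan (−0.45) and Chil3 (−0.23) lower by CPM in telmisartan, and their part in the ratios of the 9 genes was not tested.

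The IκB family came first. Nfkbia (ENSMUSG00000021025.8, chr12:55489410-55492647, minus strand, GRCm38) encodes IκBα, the inhibitor that NF-κB itself induces and that shuttles the dimers out of the nucleus. Its level in macrophage-like cells was 1049 CPM [1039, 1060] in control (40206 UMIs) and 1826 CPM [1810, 1841] in telmisartan (51767 UMIs), a log2 ratio of 0.80 [0.78, 0.82]. The telmisartan pool was the higher one, and 269 of the 11071 genes had a higher ratio. Nfkbiz (ENSMUSG00000035356.17, chr16:55811375-55838899, minus strand) encodes IκBζ, a nuclear protein that acts with NF-κB on secondary response genes such as Il6. Its level was 447 CPM [440, 454] in control and 556 CPM [548, 565] in telmisartan, a log2 ratio of 0.32 [0.28, 0.35]. Without scaling the control pool was the higher one. Nfkbid (ENSMUSG00000036931.15, chr7:30421732-30428746, plus strand) encodes IκBNS, another nuclear IκB protein. It measured 138 CPM [134, 142] in control and 229 CPM [223, 235] in telmisartan, a log2 ratio of 0.73 [0.68, 0.78]. The intervals of the pools lay apart for each of these 3 genes, but counting intervals are narrow at this depth. The ratio intervals of all 9 genes lay off 0 in these cells, as did that of the early response gene Klf6 at 0.03 [0.005, 0.05]. The share of all genes with intervals apart was not counted.

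Among the ubiquitin-editing proteins, Tnfaip3 (ENSMUSG00000019850.11, chr10:19000910-19015657, minus strand) encodes A20, which removes and replaces ubiquitin chains on signaling proteins upstream of IKK. Its level in macrophage-like cells was 297 CPM [292, 303] in control (11380 UMIs) and 487 CPM [479, 496] in telmisartan (13823 UMIs), a log2 ratio of 0.71 [0.68, 0.75]. Tnip3 (ENSMUSG00000044162.12, chr6:65525313-65634040, plus strand) encodes ABIN-3, a protein of the ABIN family of A20 partners. It measured 130.1 CPM [126, 134] in control and 155 CPM [150.5, 160] in telmisartan, a log2 ratio of 0.25 [0.19, 0.31]. Both were higher with telmisartan by CPM, Tnfaip3 also without scaling and Tnip3 then lower (−0.16).

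Zfp36 (ENSMUSG00000044786.6, chr7:28376784-28380253, minus strand) encodes tristetraprolin, which binds AU-rich elements of cytokine mRNAs and speeds their decay. Its level in macrophage-like cells was 2685 CPM [2669, 2701] in control (102866 UMIs) and 2234 CPM [2216, 2251] in telmisartan (63336 UMIs), a log2 ratio of −0.27 [−0.28, −0.25]. The control pool was the higher one, and 9152 of the 11071 genes had a higher ratio than Zfp36. The antisense gene Gm44710 overlaps Zfp36 and had 263 UMIs in these cells, and how counting treated the strands is not stated.

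The 2 phosphatases went in opposite directions. Dusp1 (ENSMUSG00000024190.7, chr17:26505590-26562128, minus strand) encodes MKP-1, a nuclear phosphatase of p38, JNK and ERK. It measured 1170.1 CPM [1159, 1181] in control and 1027 CPM [1015, 1039] in telmisartan, a log2 ratio of −0.19 [−0.21, −0.17]. The control pool was the higher one by CPM, and so by construction also without scaling. The annotated span of Dusp1 overlaps Ergic1 on the other strand (3163 UMIs in these cells). Dusp2 (ENSMUSG00000027368.6, chr2:127336159-127338376, plus strand) encodes PAC-1, an inducible MAP kinase phosphatase of hematopoietic cells. It rested on 1057 UMIs, 27.6 CPM [25.9, 29.3], in control and on 2671 UMIs, 94.2 CPM [90.7, 97.8], in telmisartan. This was a 3.41-fold higher level, a log2 ratio of 1.77 [1.67, 1.88], and 14 of the 11071 genes had a higher one. Dusp2 was high in T-like cells, and the 11 T cell markers (11 of 11 detected in each pool, most abundant Skap1 at 2.45 and 2.96 CPM) summed to 12.4 CPM in control and 14.1 CPM in telmisartan macrophage-like cells. The share of T cell RNA in the Dusp2 difference was not tested.

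Ier3 (ENSMUSG00000003541.6, chr17:35821684-35822923, plus strand), also named IEX-1, encodes an early response protein linked to ERK signaling and cell survival. Its level in macrophage-like cells was 813 CPM [804, 822] in control and 1032 CPM [1021, 1044] in telmisartan, a log2 ratio of 0.34 [0.32, 0.37]. The telmisartan pool was higher by CPM and lower per cell without scaling (−0.07). Neutrophil-like cells held the most Ier3 by CPM. The 7 neutrophil markers (7 of 7 detected, most abundant Mmp8 at 56.6 and 73.7 CPM, none at 0) summed to 81.8 CPM in control and 105 CPM in telmisartan macrophage-like cells. Their part in the ratios of Ier3, Nfkbia, Nfkbiz, Nfkbid, Tnfaip3, Zfp36 and Dusp1, which were also highest in neutrophil-like cells, was not tested.

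Depth and mitochondrial share were matched in part. In macrophage-like cells with 5000 to 10000 UMIs, the log2 ratio of Nfkbia was 0.70, that of Nfkbid 0.73, that of Tnfaip3 0.76 and that of Dusp2 1.80. In the same cells Zfp36 was at −0.29, Dusp1 at −0.23 and Ier3 at 0.25. The directions at matched depth were thus those of all macrophage-like cells. With a further limit of 10% mitochondrial UMIs, Dusp2 was at 2.14, Nfkbid at 0.93, Tnfaip3 at 0.78, Nfkbia at 0.70 and Ier3 at 0.16. Zfp36 (−0.35) and Dusp1 (−0.33) stayed lower in telmisartan there.

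Across cell classes, Nfkbia was highest in neutrophil-like cells (4742 CPM control, 4760 telmisartan), followed by macrophage-like cells. Dendritic-like cells (820.5 and 1029 CPM) lay below macrophage-like cells, and the range of T-like cells (694 and 1121 CPM) overlapped both. Nfkbiz followed a similar order, with 2502 and 2179 CPM in neutrophil-like cells. Macrophage-like and dendritic-like cells (420 and 493 CPM) overlapped for Nfkbiz, and T-like cells (261 and 372 CPM) lay below both. Nfkbid was highest in neutrophil-like cells (376 and 614 CPM), and its ranges in dendritic-like (238 and 275 CPM), T-like (99.1 and 335 CPM) and macrophage-like cells overlapped their neighbors in that order. These orders rest on the means of the 2 pools, and pools of 1 class differ in treatment. All class orders are in CPM, a share of UMIs. Neutrophil-like cells were shallow, with a median of 1800 UMIs beside 7580.5 in macrophage-like cells, and UMIs per cell are given further on.

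Tnfaip3 had a different second place. Neutrophil-like cells (1289 and 1714 CPM) were followed by T-like cells (546 and 925 CPM), and macrophage-like and dendritic-like cells (316 and 383 CPM) overlapped below. Tnip3 was highest in dendritic-like cells (292 and 285 CPM), next in macrophage-like cells and low in T-like cells (12.1 and 60.9 CPM, from 5 and 26 UMIs). No Tnip3 UMI was found in neutrophil-like cells, where 3 UMIs would be 28.2 CPM in control and 63.5 CPM in telmisartan. The ranges of Tnip3 in the other 3 classes did not overlap, and neutrophil-like cells were too shallow to be set apart from T-like cells.

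Zfp36 was highest in neutrophil-like cells (4450 and 7024 CPM), similar in macrophage-like and dendritic-like cells (2503 and 1775 CPM), whose ranges overlapped, and lowest in T-like cells (621 and 609 CPM). The order of Dusp1 ran from neutrophil-like (4525 and 7087 CPM) through macrophage-like to dendritic-like (857 and 763 CPM) and T-like cells (496 and 339 CPM), with no overlap between neighbors. Dusp2 had another pattern: T-like cells were highest (617 and 871 CPM), neutrophil-like cells second (151 and 233 CPM, from 16 and 11 UMIs), and dendritic-like cells (84.8 and 96.9 CPM) overlapped macrophage-like cells. Dusp2 in T-like cells was 22.3 times its macrophage-like level in control and 9.24 times in telmisartan. Ier3 was highest in neutrophil-like cells (2060.3 and 3385 CPM), second in macrophage-like cells, and overlapped between dendritic-like (188 and 191 CPM) and T-like cells (201 and 84.3 CPM).

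**Figure D1:**
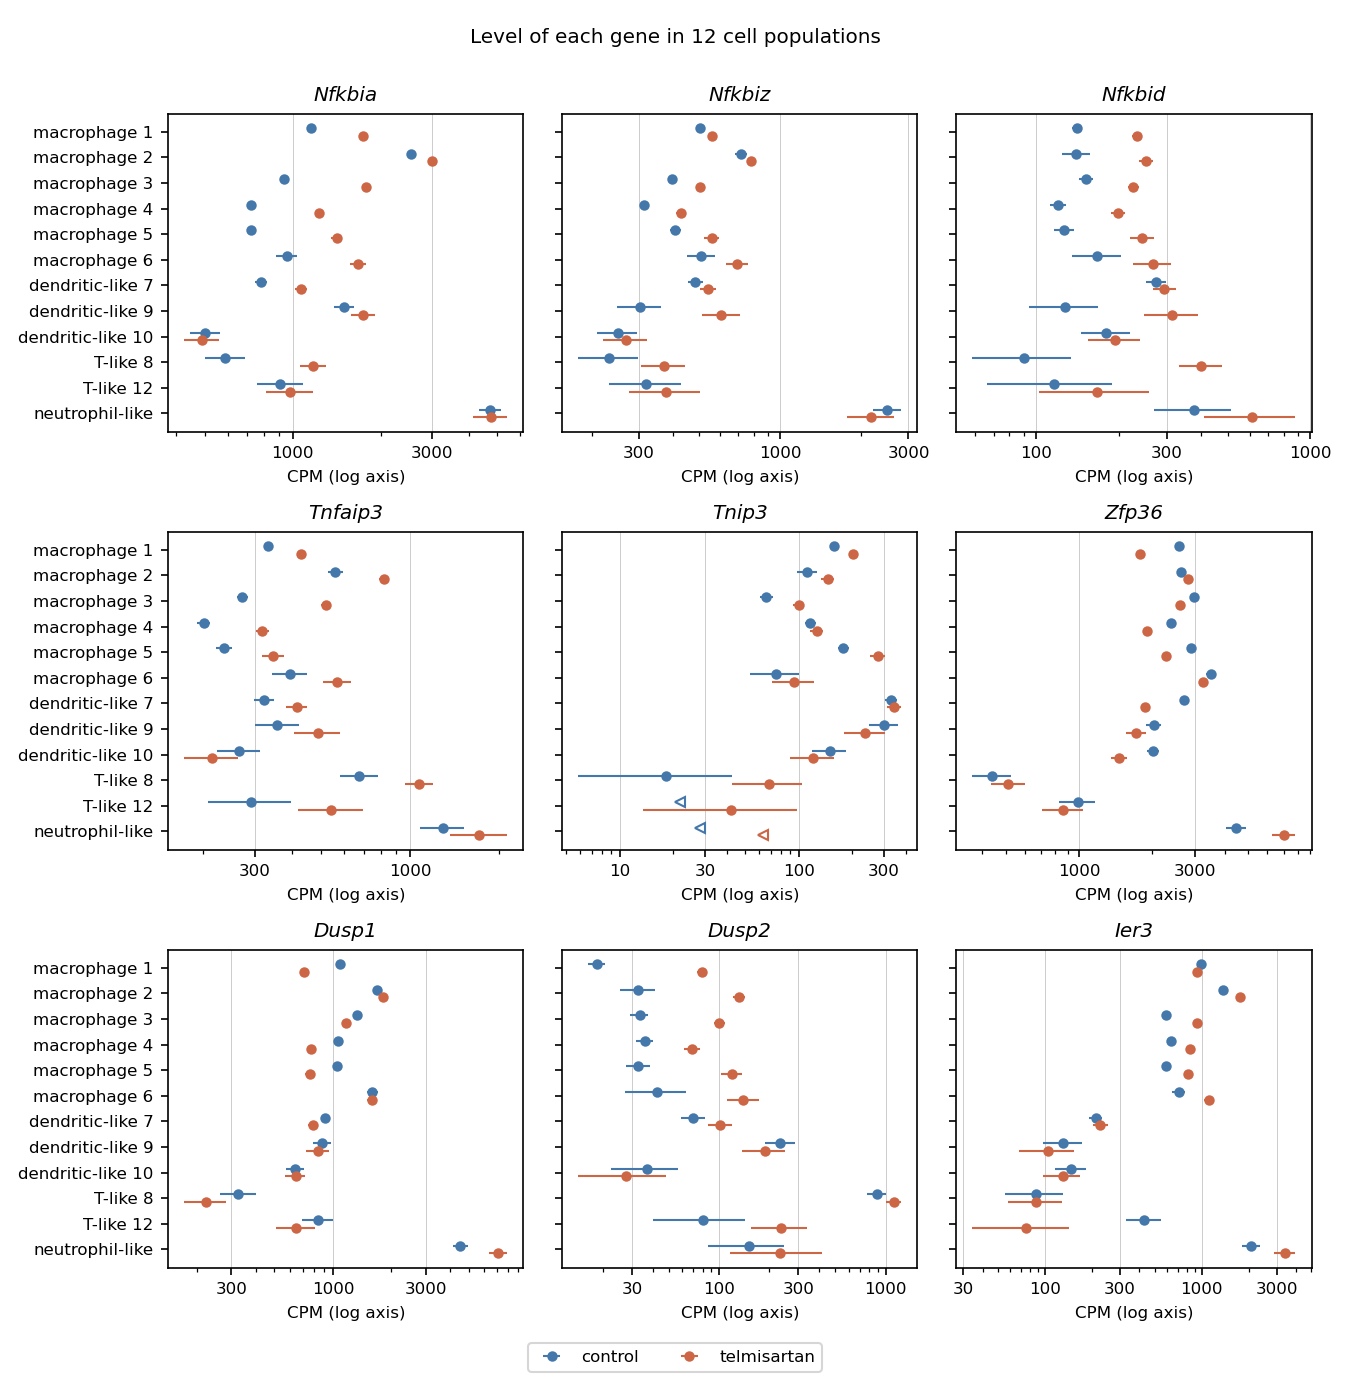
Level of each gene in CPM (log axis) in 12 populations, 1 point per pool, control and telmisartan, with 95% Poisson intervals and open triangles at the level of 3 UMIs where no UMI was found. By CPM, neutrophil-like cells, which hold few UMIs per cell, sit highest for 7 of the 9 genes. T-like cluster 8 sits highest for Dusp2 and dendritic-like cluster 7 for Tnip3.

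The 12 smaller populations (neutrophil-like cells, 6 macrophage subclusters, 3 dendritic-like and 2 T-like clusters) placed these levels more finely. Macrophage subcluster 2 (led by Gipr, Cd200 and Serpinb2), whose cells held few UMIs (median 2616), came second for Nfkbia at 2542 CPM in control and 3010 CPM in telmisartan. It was also second for Nfkbiz (718 and 783 CPM), Dusp1 (1680.3 and 1820 CPM) and Ier3 (1359 and 1747 CPM). Its pool values lay above those of the next population for each. Its counting interval overlapped that of subcluster 6 for Dusp1 in control and for Nfkbiz in telmisartan. These places are by CPM. Per cell without scaling, subcluster 2 was lowest of the 6 macrophage subclusters for Nfkbiz (2.30 and 2.60 UMIs) and Ier3 (4.36 and 5.80). For Dusp1 (5.39 and 6.04 UMIs) it was lowest in control and above subcluster 1 alone in telmisartan. For Nfkbia (8.15 and 9.995 UMIs) it lay below subclusters 1, 3 and 4 and above subcluster 6 in both pools. Subcluster 5 lay below it for Nfkbia in control and above it in telmisartan. Subcluster 6, led by the interferon-induced genes Ifit3, Rsad2 and Mx1, was second for Zfp36 (3511 and 3265 CPM) and the third for Dusp1 (1597 and 1590.4 CPM). Dendritic-like cluster 7, led by Cd209a, held the most Tnip3 (328 and 343 CPM), and cluster 9, led by Fscn1 and Ccr7, held 299 and 236 CPM. T-like cluster 8, led by Gzma and Ifng, held the most Dusp2 (884 and 1118 CPM), clear of dendritic-like cluster 9 (234 and 188 CPM). Dendritic-like cluster 10, led by Xcr1 and Clec9a, was lowest for Nfkbia (502 and 489 CPM). Its pool values lay below those of the next population, T-like cluster 8, and the counting intervals of the control pools overlapped.

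Within macrophage-like cells, Nfkbia, Nfkbid, Tnfaip3 and Dusp2 were higher with telmisartan in 6 of 6 subclusters with and without scaling, and Nfkbiz and Tnip3 in 6 of 6 by CPM and 4 of 6 without scaling. The ratio of Nfkbia ran from 0.24 in subcluster 2 to 0.97 in subcluster 5 (led by Serpina3g, Cxcl9 and Gbp5). Nfkbid ran from 0.57 to 0.94 and Tnfaip3 from 0.36 to 0.93. Dusp2 ran from 0.94 in subcluster 4, led by the cell division genes Pbk, Top2a and Ccna2, to 2.11 in subcluster 1, led by Tnfsf15, Ereg and Lilra6. In subcluster 1 Dusp2 measured 18.4 CPM in control and 79.3 CPM in telmisartan. The 11 T cell markers summed to 7.92 CPM in control and 13.4 CPM in telmisartan there. Their sum was also higher with telmisartan in subcluster 2 and lower in subclusters 3, 4, 5 and 6. The part of T cell markers in the Dusp2 ratios of the subclusters was not tested. The intervals of Nfkbia, Nfkbiz, Nfkbid, Tnfaip3 and Dusp2 lay above 0 in each subcluster by CPM, and those of Tnip3 in 4 of 6. Subcluster 1 held the largest number of control macrophages (1593 of 4053) and subcluster 2 the largest of telmisartan macrophages (1254 of 3995), so class values weigh the subclusters differently.

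Zfp36, Dusp1 and Ier3 varied in direction between subclusters, the same with and without scaling. Zfp36 was lower with telmisartan in 5 of 6, from 2583 to 1780.0 CPM in subcluster 1 (−0.54 [−0.56, −0.51]), and higher in subcluster 2, from 2646 to 2828 CPM (0.10 [0.05, 0.14]). Dusp1 was also lower in 5 of 6, with 1092 CPM in control and 712 CPM in telmisartan in subcluster 1 (−0.62 [−0.66, −0.58]). In subcluster 2 Dusp1 was higher (0.12 [0.06, 0.17]), and in subcluster 6 its interval included 0. Ier3 was higher in 5 of 6, up to 0.66 in subcluster 3 (led by Gas6, Htr2b and Igf1), where it measured 592 CPM in control and 934 CPM in telmisartan. In subcluster 1 Ier3 was lower, at 995 CPM in control and 933 CPM in telmisartan (−0.09 [−0.13, −0.06]).

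The subcluster with few UMIs bears on these values. Without subcluster 2, Nfkbia was at 0.75, Nfkbid at 0.71, Tnfaip3 at 0.61 and Dusp2 at 1.68. These 4 genes were past 1.5-fold there as well, and Zfp36 (−0.33) and Dusp1 (−0.36) were lower by more than in all macrophage-like cells. With the subcluster shares of both groups together, Nfkbia (0.54) and Tnfaip3 (0.57) were not past 1.5-fold, with Nfkbid at 0.74, Dusp2 at 1.80, Zfp36 at −0.24 and Dusp1 at −0.23. Cluster 3 of the main clustering, macrophage-like by its markers, had a median of 2483 UMIs and 11.3% mitochondrial UMIs, and without it Nfkbia was at 0.77, Nfkbid at 0.71, Tnfaip3 at 0.69 and Dusp2 at 1.72. Within subcluster 2 alone, Dusp2 was at 2.01 (32.7 and 132 CPM), Nfkbid at 0.84 (140.3 and 251 CPM), Tnfaip3 at 0.54 and Nfkbia at 0.24.

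In dendritic-like cells, none of the 9 genes was past 1.5-fold in either direction, where 3.67% of 5935 genes were higher and 3.37% lower. By CPM 6 of the 9 ratios of telmisartan over control were above 0, and 2 of these, Dusp2 (−0.01) and Ier3 (−0.18), were below 0 without scaling. Zfp36 differed most, at 2503 CPM in control and 1775 CPM in telmisartan (−0.50 [−0.55, −0.44]). Nfkbia was at 0.33 [0.24, 0.41], Tnfaip3 at 0.28 [0.14, 0.42], Nfkbiz at 0.23 [0.11, 0.35] and Nfkbid at 0.21 [0.05, 0.37]. Dusp2, whose ratio was 1.77 in macrophage-like cells, was at 0.19 [−0.08, 0.46] here, a difference between classes that was not tested. The intervals of Tnip3, Dusp2 and Ier3 included 0. The 11 macrophage markers (11 of 11 detected in each pool, most abundant Lyz2 at 1661 and 1349 CPM) summed to 3995 CPM in control and 3272 CPM in telmisartan dendritic-like cells, and the 6 monocyte markers to 536 and 792 CPM, and their part in these ratios was not tested. The median of the 9 was 0.19 by CPM, beside −0.03 for the 5935 genes, and −0.01 without scaling, which moves each ratio in these cells by −0.20.

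The dendritic-like clusters were not alike. In cluster 9 Nfkbid was 127 CPM in control and 312 CPM in telmisartan (1.29 [0.76, 1.84]), from 49 and 78 UMIs. Nfkbiz was 301.5 and 604 CPM there (1.00 [0.64, 1.36]). Both were higher in the telmisartan pool with and without scaling. In cluster 7 Nfkbia was at 0.46 [0.35, 0.56] and Dusp2 at 0.55 [0.21, 0.89], and Zfp36 at −0.53 [−0.60, −0.46]. In cluster 10 Zfp36 was 2022 CPM in control and 1463 CPM in telmisartan (−0.47 [−0.61, −0.32]). As a ratio to macrophage-like cells of the same pool, the macrophage marker C1qa was at 0.084 in control and 0.019 in telmisartan in cluster 9. Apoe was at 0.17 and 0.036 there, whereas Csf1r was at 0.056 and 0.075. C1qa was at 0.297 and 0.146 in cluster 7, and at 0.040 and 0.056 in cluster 10. The part of these markers in the ratios of the clusters was not tested.

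In T-like cells, 1495 genes had at least 100 UMIs, with a median log2 ratio of 0.02 and quartiles of −0.19 and 0.29. Leaving out the scaling moved each ratio there by −0.61, and Nfkbiz (0.51 to −0.10) and Dusp2 (0.50 to −0.11) turned. Nfkbid measured 99.1 CPM [71.1, 134] in control (41 UMIs) and 335 CPM [282, 394] in telmisartan (143 UMIs), a log2 ratio of 1.76 [1.25, 2.29]. Nfkbia was at 0.69 [0.48, 0.91] and Tnfaip3 at 0.76 [0.52, 1.00]. Tnip3, from 5 and 26 UMIs, had a wide interval, 2.33 [0.93, 4.07]. Zfp36 hardly differed between the pools by CPM (−0.03 [−0.28, 0.22]) and was lower without scaling (−0.64). Dusp1 measured 496 CPM in control and 339 CPM in telmisartan (−0.55 [−0.86, −0.23]), and Ier3 201 CPM and 84.3 CPM (−1.25 [−1.86, −0.67]). The 11 macrophage markers (11 of 11 detected in each pool) summed to 5684 CPM in control and 2893 CPM in telmisartan T-like cells, with the most abundant, Lyz2, at 2220 and 1023 CPM. Their part in the ratios of Dusp1 and Ier3 was not tested. The 10 dendritic cell markers summed to 91.9 CPM in control and 175.6 CPM in telmisartan T-like cells. The part of dendritic cell markers in the ratio of Tnip3 was not tested.

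The T-like clusters differed in these values. In cluster 8 Nfkbid was 90.6 CPM in control and 399.9 CPM in telmisartan (2.14 [1.51, 2.82]), higher also without scaling. Ier3 was level there by CPM, at 87.0 and 87.8 CPM (24 and 27 UMIs), and at −0.72 without scaling, which moved each ratio of this cluster by −0.73. The 11 macrophage markers (11 of 11 detected in each pool) summed to 3802 CPM in control and 1525 CPM in telmisartan cells of cluster 8, and their part in these ratios was not tested. In cluster 12, led by Foxp3, Ier3 was 428 CPM in control (59 UMIs) and 75.2 CPM in telmisartan (9 UMIs), a log2 ratio of −2.51 [−3.71, −1.49]. Tnfaip3 was 290.4 and 543 CPM in that cluster (0.90 [0.31, 1.51]), Dusp2 79.9 and 234 CPM (1.55 [0.50, 2.71]), and both were higher there also without scaling. Nfkbid was at 0.53 [−0.50, 1.57]. The 11 macrophage markers (11 of 11 detected in each pool) summed to 9454 CPM in control and 6411 CPM in telmisartan cells of cluster 12, and their part in the ratio of Ier3 was not tested. Each pool of cluster 12 held 22 cells.

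In neutrophil-like cells, 217 genes had at least 100 UMIs, with a median log2 ratio of 0.10 and quartiles of −0.29 and 0.49, and without scaling Nfkbia alone of the 9 turned, from 0.01 to −0.08. Zfp36 measured 4450 CPM in control (473 UMIs) and 7024 CPM in telmisartan (332 UMIs), a log2 ratio of 0.66 [0.45, 0.86]. Dusp1 measured 4525 CPM and 7087 CPM (0.65 [0.44, 0.85]), and Ier3 2060.3 CPM and 3385 CPM (0.72 [0.41, 1.02]). These 3 genes were thus higher in the telmisartan pool, whereas Zfp36 and Dusp1 were lower with telmisartan in macrophage-like and dendritic-like cells. Nfkbia, Nfkbiz, Nfkbid, Tnfaip3 and Dusp2 had intervals that included 0, and Tnip3 had no UMI. Neutrophil markers summed to 16031 CPM in control and 9224 CPM in telmisartan, the 11 macrophage markers to 4553 CPM (11 of 11 detected) and 2327 CPM (8 of 11, with Adgre1, Mrc1 and C1qa at 0; most abundant Lyz2 at 2465 and 1058 CPM) and the 6 monocyte markers to 950.2 CPM (6 of 6) and 359.7 CPM (3 of 6). The part of these differences in the ratios of Zfp36, Dusp1 and Ier3 was not tested.

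Single macrophages differed in how many of the genes they showed. After thinning each cell to 1000 UMIs (45 control and 72 telmisartan cells were shallower and left out), a Nfkbia UMI was found in 47.6% [46.0, 49.1] of control and 71.7% [70.3, 73.1] of telmisartan macrophages (82.1% and 92.5% unthinned). Dusp2 was found in 2.47% [2.01, 2.999] of control and 7.62% [6.81, 8.497] of telmisartan macrophages (10.6% and 24.3% unthinned). For background, Trac, a T cell gene, was found in 0.200% of control and 0.306% of telmisartan macrophages at the same thinned depth (1.80% and 1.48% unthinned, median depths 9019 and 6463 UMIs). The Dusp2 shares in both groups lay above that level. Tnfaip3 was found in 22.6% and 34.0% of thinned control and telmisartan macrophages (61.2% and 73.4% unthinned), and Nfkbid in 12.7% and 20.5% (49.7% and 59.0%). Shares of Zfp36 (79.4% and 74.6%, unthinned 96.3% and 94.3%) and Dusp1 (58.7% and 51.4%, unthinned 91.5% and 85.1%) were smaller in telmisartan. Nfkbiz was found in 32.0% and 37.5% of thinned cells (76.8% and 76.5% unthinned), Tnip3 in 9.36% and 12.01% (38.0% and 38.1%) and Ier3 in 45.9% and 57.0% (83.9% and 88.3%).

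A thinned macrophage held UMIs of 3.11 of the 9 genes on average in control and 3.66 in telmisartan (medians 3 and 4). At least 5 of the 9 were found in 19.985% of control and 31.6% of telmisartan macrophages. The median unthinned macrophage held 5.48 Nfkbia UMIs per 10000 in control and 17.3 in telmisartan. Over thinned macrophages, 35 of 36 pairs of the genes had a Pearson r above 0 in each group, with a median of 0.08 in control (4008 cells) and 0.11 in telmisartan (3923 cells). The highest were Nfkbia with Tnfaip3 in control (0.34) and Zfp36 with Dusp1 in telmisartan (0.39). Such cells share a library and a thinned depth, and weak correlations in sparse counts are no more than a description.

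In dendritic-like cells thinned to 1000 UMIs (1 control and 4 telmisartan cells left out), Nfkbia was found in 40.1% and 51.3% of cells (76.0% and 84.5% unthinned) and Tnip3 in 23.0% and 21.0% (58.4% and 53.9%). C1qa, a macrophage gene, was found there in 5.61% and 4% (22.9% and 12.2% unthinned, median depths 7678 and 6393 UMIs). Dusp2 at 8.02% [5.48, 11.3] and 9% [6.01, 12.8] had intervals that overlapped those of C1qa. In T-like cells thinned to 500 UMIs, with none left out, Dusp2 was found in 21.7% [12.7, 33.3] and 33.0% [24.3, 42.7] (63.8% and 74.3% unthinned). Tnip3 was found in 1.45% and 2.75% of T-like cells (7.25% and 18.3% unthinned), beside C1qa in 4.35% and 4.59% (17.4% and 11.9% unthinned, median depths 3873 and 2888 UMIs), with thinned intervals that overlapped.

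Over 18 pools (the 6 macrophage subclusters and the dendritic-like, T-like and neutrophil-like classes in each group, all with at least 20 cells), some of the 9 genes followed each other in log2(CPM + 1). Pearson r was 0.92 for Nfkbia with Nfkbiz, 0.88 for Dusp1 with Zfp36, 0.87 for Dusp1 with Nfkbiz and 0.82 for Ier3 with Dusp1. Tnip3 had a negative r with each of the other members, from −0.30 with Zfp36 to −0.75 with Tnfaip3. Dusp2 was negative with Zfp36 (−0.50), Ier3 (−0.34) and Dusp1 (−0.17). These pools share a capture, and subclusters of 1 class share most of their expression. Both neutrophil-like pools stood at 0 for Tnip3. The part of the neutrophil-like pools in the r values, positive or negative, was not tested. Over thinned macrophages, Tnip3 had an r below 0 with Dusp1 alone (−0.02 in control, −0.004 in telmisartan), and 0.08 with Nfkbia in each group. Among 10006 genes compared with each member over the 18 pools, the closest to Nfkbia were Abtb2 (0.96), Zswim4 (0.96) and Bcl2l11 (0.95). The closest to Nfkbiz were Litaf (0.98), Ifrd1 (0.97) and Hdc (0.97), the last also a top gene of the neutrophil-like cluster. Nfkbid was closest to Arl5b (0.91), Gadd45b (0.90) and Tob1 (0.89). Tnfaip3 was closest to Sik3 (0.98), Tnfrsf1b (0.97) and Prdm2 (0.94), and Tnip3, with both neutrophil-like pools at 0, to Cyp4f16 (0.98), Acvr1b (0.96) and Fcrla (0.96). Zfp36 was closest to the immediate early gene Fos (0.94), then to Tns3 (0.93) and Gda (0.93). Dusp1 was closest to Tlr6 (0.96), Trib1 (0.95) and 9930022D16Rik (0.95), Dusp2 to Isy1, Zdhhc18 and Glipr1 (0.86 each), and Ier3 to Clec4e (0.97), Tpd52 (0.96) and the chemokine gene Cxcl2 (0.96).

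Other genes of the pathways gave a frame for the 9 in macrophage-like cells. The counts of each list stand beside 4.65% of the 11071 genes higher and 2.14% lower past 1.5-fold by CPM. The lists, like the 9 genes, were chosen with earlier results of these data known, so their counts are no measure of enrichment. Without scaling these shares were 1.25% and 29.4%. Of the 5 NF-κB subunits, the partners of Nfkbia, 3 were higher past 1.5-fold and none lower, with a median of 0.61 by CPM and 0.20 without scaling, where none of the 5 was past 1.5-fold and Rela turned from 0.37 to −0.04. Rel was 110.1 CPM in control and 207 CPM in telmisartan (0.91), Relb 29.1 and 45.9 CPM (0.66) and Nfkb1 182 and 279 CPM (0.61). The list of 5 other IκB proteins held 3 genes of that family (Nfkbie, Nfkbib and Bcl3) and 2 other NF-κB inhibitors, Nkrf (0.62) and Commd1 (0.01). Of the 5, 4 were higher past 1.5-fold and none lower, with a median of 0.69 by CPM and 0.27 without scaling, where Nfkbie alone was past 1.5-fold and Commd1 turned to −0.40. Nfkbie, a relative of Nfkbia, was 104 and 267 CPM (1.36), Nfkbib 47.4 and 89.5 CPM (0.92) and Bcl3 13.5 and 21.7 CPM (0.69). Of 18 activation kinases and adaptors, 1 was higher (Irak2, 0.62) and 1 lower (Tirap, −0.66) past 1.5-fold, with Ticam1 at 0.50 and a median of −0.03 by CPM and −0.44 without scaling, where none was higher and 4 were lower past 1.5-fold. Of 13 other NF-κB brakes measured (14 in the list), 2 were higher past 1.5-fold, Zc3h12a (97.2 and 189.9 CPM, 0.97) and Traf3 (0.63), and none lower, with a median of 0.14 by CPM and −0.27 without scaling, where none was higher and 2 were lower past 1.5-fold. Tnip1, which encodes the A20 partner ABIN-1, was 49.5 and 70.3 CPM (0.51).

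Among 21 NF-κB target cytokines and enzymes, 6 were higher and 1 lower past 1.5-fold, and the median was 0.31 by CPM and −0.10 without scaling, with 18 and 8 genes higher and, without scaling, 3 higher and 2 lower past 1.5-fold. The 3 with the largest ratios were Cxcl1 (397 and 887 CPM, 1.16), Gadd45b (32.7 and 71.9 CPM, 1.14) and Il6 (18.8 and 41.2 CPM, 1.13), and Cxcl3 was lower (475 and 290.5 CPM, −0.71). Tnf was 119 and 186 CPM (0.65). Il1b (0.37) and Cxcl2 (0.32) were higher by CPM and at −0.04 and −0.09 without scaling. Il10, an anti-inflammatory cytokine gene outside this list, was 8.61 CPM in control and 41.9 CPM in telmisartan (2.28 [2.10, 2.46]), from 330 and 1187 UMIs.

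On the MAP kinase side, 2 of 19 kinases and kinase kinases were higher past 1.5-fold (Map3k1, 0.63, and Braf, 0.62) and none lower, with Map3k8 at 0.49 and a median of 0.03 by CPM and −0.38 without scaling, where none was higher and 3 were lower past 1.5-fold. Of the 10 other phosphatases of the Dusp family, 3 were higher and 1 lower past 1.5-fold, with a median of 0.38 by CPM and −0.03 without scaling, where 2 were higher and 2 lower past 1.5-fold. Dusp5, like Dusp2 a nuclear phosphatase, was 209 and 421 CPM (1.01), whereas Dusp6, a cytoplasmic ERK phosphatase, was 221 and 137 CPM (−0.69). Dusp3 was 94.3 and 128 CPM (0.44), and Dusp4 rested on 82 and 70 UMIs (0.21). Of 8 other ERK pathway inhibitors none was past 1.5-fold, with Spred2 at 0.44, Spry1 at −0.20, Spred3 at 0.18 and a median of −0.08 by CPM and −0.49 without scaling, where none was higher and 3 were lower past 1.5-fold.

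The relatives of Zfp36 were lower as well by CPM, and so by construction also without scaling. Zfp36l1 was 647 CPM in control and 540 CPM in telmisartan (−0.26), and Zfp36l2 386 and 354 CPM (−0.12). In the list of 11 mRNA decay factors, 2 were higher past 1.5-fold and none lower, with Tent5c at 0.81, Zc3h12c at 0.56 and a median of −0.12 by CPM and −0.53 without scaling, where none was higher and 2 were lower past 1.5-fold. Of 10 other immediate early response genes, 5 were higher past 1.5-fold and none lower, with a median of 0.46 by CPM and 0.05 without scaling, and 5 of 10 higher without scaling, 1 of them past 1.5-fold, beside 1 lower past it. Maff was 41.1 and 85.7 CPM (1.06), Mafk was at 0.94 and Klf10 at 0.91.

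Tissue digestion at 37 °C can induce immediate early genes such as these inducible regulators, whether higher or lower with telmisartan. Of 20 dissociation response genes, 1 was higher past 1.5-fold with telmisartan (Ier2, 0.68) and none lower, with a median of 0.10 by CPM and −0.31 without scaling, and 11 and 4 genes higher. Without scaling none of the 20 was higher and 7 were lower past 1.5-fold, beside 1.25% and 29.4% of the 11071 genes. Fos was 2925 CPM in control and 2118 CPM in telmisartan (−0.47), Jun 540 and 395 CPM (−0.45) and Btg2 was at −0.54. Egr1 was 248 and 366 CPM (0.56), and Hspa1a 224 and 214 CPM (−0.06). Fosb (1093 and 1580 CPM, 0.53) and Junb (845 and 1160 CPM, 0.46) were higher, also without scaling (0.12 and 0.04). Fos, Jun and Btg2 thus lay on the side of Zfp36 and Dusp1 and their relatives Fosb and Junb on the other, and the part of digestion in these values was not tested.

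**Figure D2:**
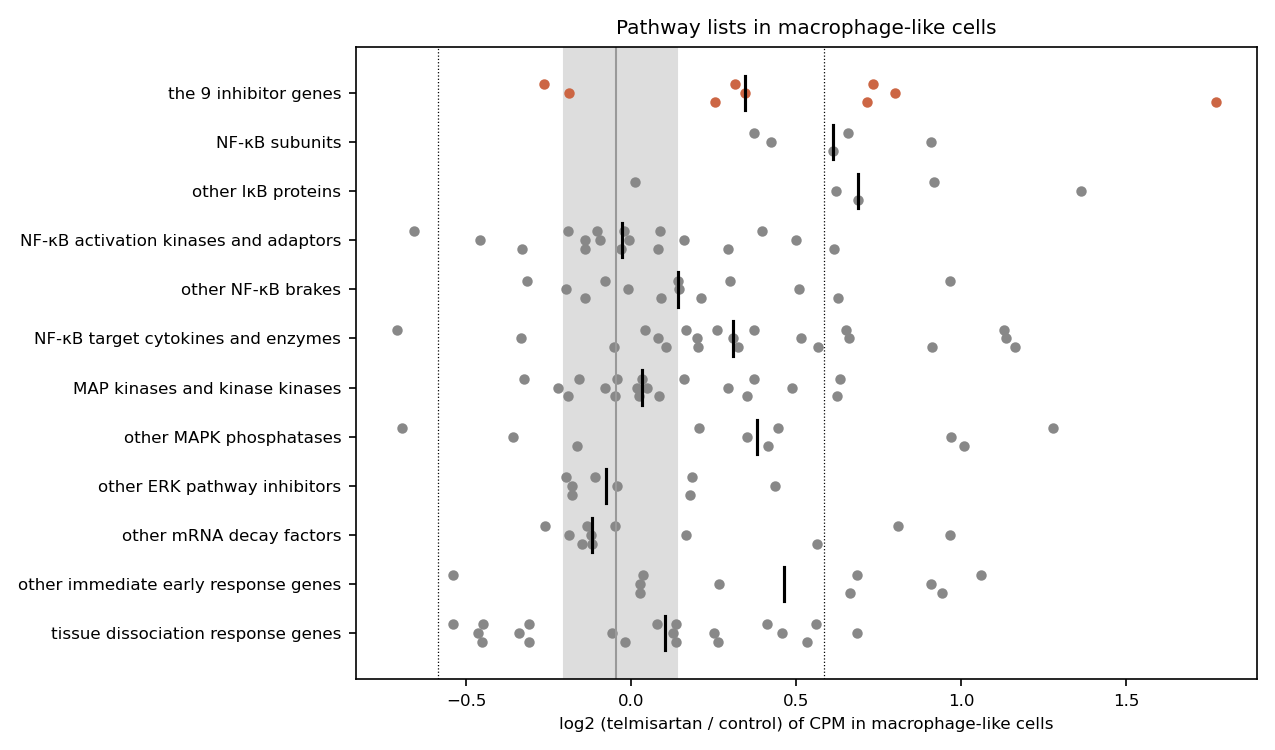
Log2 ratio of CPM in macrophage-like cells, telmisartan over control, of the genes of each pathway list (dots) with list medians (black bars) and the quartiles of all 11071 genes (grey band, −0.20 to 0.14). The lists of NF-κB subunits and other IκB proteins (which also holds Nkrf and Commd1) have medians of 0.61 and 0.69 by CPM, 0.20 and 0.27 without scaling to total UMIs, and without scaling Rela turns to −0.04 and Commd1 to −0.40.

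Promoter sequences of 8 of the 9 genes were found by symbol in a table of RefSeq starts (GRCm38.p6), the table used having no entry for Nfkbiz, and are shown because Nfkbia, Nfkbid, Tnfaip3 and Dusp2 were higher together while Zfp36 and Dusp1 were lower. The 250 bases before each start were searched on both strands for the κB motif, the AP-1 motif TGANTCA, the cAMP response element (CRE) TGACGTCA and the CArG box bound by serum response factor. A κB match was found in 5 of 8 genes (Nfkbia, Nfkbid, Tnfaip3, Tnip3 and Ier3), beside 4.46% of 27025 genes and 3.90% of 32851 promoters. An AP-1 match was found in Tnfaip3 (7.82% of genes, 6.75% of promoters). CRE matches were found in Nfkbid and Dusp1 (1.77% of genes, 1.55% of promoters), and a CArG box in Zfp36 (1.62% of genes, 1.47% of promoters). The letters of none of the 4 motifs were in the window of Dusp2, the gene with the largest ratio, and matches of different motifs did not overlap in the sequences printed. A match describes letters and is not a binding site.

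The windows run 5′ to 3′ with matches in capitals. Nfkbia (chr12:55492648-55492897, minus strand) has a κB match 19 bases before its start. Nfkbid (chr7:30422156-30422405, plus strand, the second of 3 starts) has κB matches 216 and 171 bases and a CRE match 43 bases before it. Tnfaip3 (chr10:19015411-19015660, minus strand, the first of 2 starts) has an AP-1 match at 129 bases and κB matches at 115 and 2 bases. Zfp36 (chr7:28379229-28379478, minus strand) has a CArG box at 48 bases, and Dusp1 (chr17:26508473-26508722, minus strand) a CRE match at 135 bases. Dusp2 lies at chr2:127335909-127336158 on the plus strand. The windows of Nfkbia and Dusp2 end at the annotated gene start, and those of Nfkbid, Zfp36, Dusp1 and most of Tnfaip3 lie within the annotated gene.
Nfkbia: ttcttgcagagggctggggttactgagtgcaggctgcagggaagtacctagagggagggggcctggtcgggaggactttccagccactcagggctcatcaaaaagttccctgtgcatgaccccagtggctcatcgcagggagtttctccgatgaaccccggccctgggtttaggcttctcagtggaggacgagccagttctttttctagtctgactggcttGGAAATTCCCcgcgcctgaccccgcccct
Nfkbid: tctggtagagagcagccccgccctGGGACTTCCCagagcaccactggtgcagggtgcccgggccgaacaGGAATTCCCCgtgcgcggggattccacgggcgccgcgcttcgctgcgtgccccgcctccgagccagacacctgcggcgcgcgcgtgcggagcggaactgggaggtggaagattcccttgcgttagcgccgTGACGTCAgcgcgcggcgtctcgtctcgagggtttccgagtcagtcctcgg
Tnfaip3: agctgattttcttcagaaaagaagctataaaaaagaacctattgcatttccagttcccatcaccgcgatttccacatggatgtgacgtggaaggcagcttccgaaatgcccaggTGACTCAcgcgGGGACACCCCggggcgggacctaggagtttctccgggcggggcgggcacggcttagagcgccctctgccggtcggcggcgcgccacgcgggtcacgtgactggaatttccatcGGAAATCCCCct
Zfp36: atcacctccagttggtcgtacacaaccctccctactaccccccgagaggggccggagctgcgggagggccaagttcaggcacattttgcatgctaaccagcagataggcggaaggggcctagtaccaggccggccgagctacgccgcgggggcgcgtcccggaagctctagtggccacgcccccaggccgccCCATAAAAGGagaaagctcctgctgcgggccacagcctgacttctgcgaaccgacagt
Dusp1: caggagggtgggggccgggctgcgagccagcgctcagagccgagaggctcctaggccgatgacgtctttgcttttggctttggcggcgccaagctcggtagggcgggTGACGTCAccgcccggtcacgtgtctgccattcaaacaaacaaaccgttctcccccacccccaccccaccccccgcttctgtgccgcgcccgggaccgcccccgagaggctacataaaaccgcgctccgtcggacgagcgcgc
Dusp2: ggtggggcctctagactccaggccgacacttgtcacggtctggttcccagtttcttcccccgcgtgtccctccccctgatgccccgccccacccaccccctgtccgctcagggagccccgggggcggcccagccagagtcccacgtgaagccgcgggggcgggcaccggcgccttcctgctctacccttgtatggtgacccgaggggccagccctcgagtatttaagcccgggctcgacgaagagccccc

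Tnip3 (chr6:65590148-65590397, plus strand) has the κB match GGGAAATCCC 44 bases before its start, and Ier3 (chr17:35821463-35821712, plus strand) has GGAGTTCCCC at 82 bases. The 5 genes with a κB match had ratios from 0.25 (Tnip3) to 0.80 (Nfkbia) in macrophage-like cells by CPM, and without scaling Tnip3 (−0.16) and Ier3 (−0.07) turned negative. The 3 without one were Dusp2 (1.77), Dusp1 (−0.19) and Zfp36 (−0.27).

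**Figure D3:**
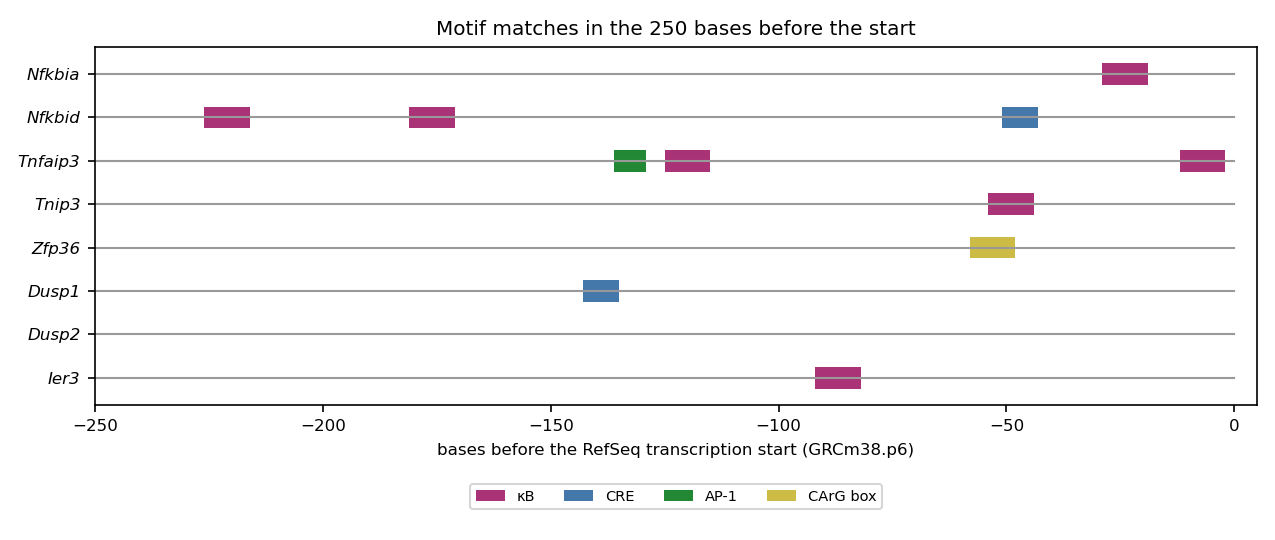
Positions of motif matches (bars) in the 250 bases before the start of each promoter, in bases. The κB matches of Nfkbia and Tnfaip3 include ones 19 and 2 bases before the start, and Dusp2 has no match of the 4 motifs.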

How the data were processed

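The deposited molecule counts (BD Rhapsody WTA Analysis Pipeline 1.11, GRCm38, GENCODE M19, intronic reads included, per the file headers) and sample tag reads were used as they stood. Cells needed 75% of at least 10 tag reads from 1 tag, 150 to 5000 genes and at most 20% mitochondrial UMIs. Scrublet (scanpy 1.11.5) called 0 doublets by its automatic threshold, so the 931 cells with the highest scores were removed, the 9.39% predicted from 8.57% tag multiplets. Of 20726 putative cells, 8980 were kept.

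Clustering used Seurat 5.3.0 (R 4.3.3) with 2000 variable genes without the 9 genes, 30 principal components, 20 neighbors and resolution 0.5. Macrophage-like cells were split further at resolution 0.35, the first in steps of 0.05 to yield 6 subclusters. A class was named where at least 3 of its markers were 4-fold above the other clusters and in 10% of cells, and other clusters with at least 3 macrophage markers in 10% of cells were named macrophage-like. Mcpt1 was not in the table. Dendritic-like subsets are the main clusters, chosen after both clusterings had been seen.

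Sums and intervals used Python 3.11.15, numpy 2.4.6, scipy 1.17.1 and pandas 2.3.3, plots matplotlib 3.10.9, and TMM factors edgeR 4.0.16. Ratios needed 10 UMIs over both groups. Named genes were the 9, the 3 with the largest absolute ratio in macrophage-like cells per list with at least 200 UMIs, genes related to a member (among them Tnf, Il1b, Cxcl2, Fos, Jun, Hspa1a and Il10, the last in no list), and per member the 3 genes with the highest Pearson r over pools. Protein patterns planned for the members were not run. Gene positions are GENCODE M21. Promoters are RefSeq, GRCm38.p6. The members and lists were chosen with earlier results of these data known. The code was tested on simulated data.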

Additional observations from a re-analysis of the deposited data

Results flagged for a closer look

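Zfp36, Dusp1 and Ier3 had ratios of telmisartan over control in opposite directions in different cell classes, with counting intervals off 0 on both sides. The log2 ratio of Zfp36 in neutrophil-like cells minus that in dendritic-like cells was 1.15. The log2 ratio of Dusp1 in neutrophil-like cells minus that in T-like cells was 1.19, and for Ier3 the same difference was 1.97. These differences were not tested, since each class had 1 pool per group.

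Cells over the mitochondrial limit (2623 control, 4433 telmisartan) were used in no comparison of the report and also held UMIs of the 9 genes. Their Nfkbia level was 888 CPM in control and 1056 CPM in telmisartan, a log2 ratio of 0.25. Nfkbid was 131 and 163 CPM (0.32), Tnfaip3 170.1 and 210.3 CPM (0.31), Dusp2 35.2 and 54.0 CPM (0.62) and Ier3 559.6 and 595 CPM (0.0896). The counting intervals of these ratios lay above 0, and those of Zfp36 (1127 and 1043 CPM, −0.11) and Tnip3 (−0.38) below 0. Nfkbiz was at −0.07 and Dusp1 at 0.02, with intervals that included 0, in these cells, whose median depth was 1173 UMIs in control and 1143 UMIs in telmisartan. The source of these UMIs was not tested.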

How the results depend on the processing

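The macrophage-like ratios were recomputed under 19 alternatives, of which 4 (without subcluster 2, without cluster 3, subcluster 2 alone, and 5000 to 10000 UMIs with at most 10% mitochondrial UMIs) were chosen after seeing the data, as were the ratios without scaling in other populations and lists and the share of all genes past 1.5-fold without scaling. Nfkbia, Nfkbid, Tnfaip3 and Dusp2 were higher with telmisartan in 19 of 19, and the other 5 genes kept their direction in 18 of 19. Nfkbiz, Tnip3 and Ier3 turned without scaling, and Zfp36 (0.10) and Dusp1 (0.12) in subcluster 2 alone. The number of genes higher past 1.5-fold, 4 as reported, was 2 with the mean of ln(1 + UMIs per 10000) (Nfkbid and Dusp2 lost), 1 without scaling (Dusp2 left), 2 with the subcluster shares of both groups together and 2 in subcluster 2 alone (Nfkbia and Tnfaip3 lost in both). The number lower was 2 without scaling (Zfp36 and Dusp1) and 0 otherwise. The median of the 9 ratios, 0.34 as reported, was −0.069 without scaling, 0.39 with at most 10% mitochondrial UMIs, 0.30 without doublet removal, 0.42 with the mean of UMIs per 10000, 0.39 with TMM factors, 0.40 in thinned cells, 0.40 with the shares of both groups, 0.26 without subcluster 2, 0.32 without cluster 3 and 0.52 with 5000 to 10000 UMIs and at most 10% mitochondrial UMIs. The cause was not tested, except that the change without scaling follows from the lower UMIs per cell in telmisartan. Without scaling, Nfkbiz (−0.055, from 0.68), Tnfaip3 (−0.061, from 0.67), Dusp2 (−0.39, from 0.34), Zfp36 (−0.51, from 0.22) and Ier3 (−0.72, from 0.01) turned in T-like cluster 8, and the medians of 11 lists moved. With at least 400 UMIs, 3.56% and 1.26% of genes were higher and lower past 1.5-fold in macrophage-like cells, and with at least 20 UMIs 8.77% and 4.43%. Class levels moved beyond their counting intervals in 7 of 36 recomputations, each without doublet removal. Neutrophil-like and T-like ratios rest on few cells and small counts. No paired analysis was possible because each group was 1 pool of different mice.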
